A study of Mus musculus with 16 samples.

Results

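NRF2, the product of Nfe2l2, is a transcription factor that turns on genes against oxidants and electrophiles. The 10 genes described here are Nfe2l2 itself, Keap1, whose product holds NRF2 for degradation, and 8 genes known as NRF2 targets, namely Gclc, Gclm, Slc7a11, Srxn1, Txnrd1, Nqo1, Hmox1 and Akr1b8. They were chosen by symbol among the 54453 genes of the table. All 10 were found and all 10 passed the filter on low values, as 10 of 15285 protein-coding genes tested. Total RNA was sequenced from 16 lines of immortalised mouse embryonic fibroblasts (MEFs), derived from E13.5 embryos of the C57BL/6J strain and carried through crisis by serial passaging, with no treatment or engineered allele in any line. The lines comprise 2 parental lines, named MEF-1 and MEF-2, each from 1 embryo and represented by 1 library, and 7 clonal lines of each, every one grown from 1 sorted cell and represented by 1 library. The values are rlog values, a log2 scale corrected for library size on which each gene is drawn towards its own average, so that differences are understated for genes with few reads. The depth behind them is unknown because the table holds no counts.

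In the classical account of the pathway, KEAP1 presents NRF2 to a CUL3 ubiquitin ligase, so that the factor is made and destroyed continuously. Oxidants and electrophiles modify KEAP1, NRF2 builds up, pairs with a small MAF protein and binds the antioxidant response element (ARE) before its targets. Much of this control acts on the protein, which RNA-sequencing does not measure. The targets make glutathione (Gclc, Gclm, Slc7a11), keep thioredoxin and peroxiredoxins reduced (Txnrd1, Srxn1) and handle quinones, haem and carbonyls (Nqo1, Hmox1, Akr1b8).

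The letters of the ARE were looked for in the 250 bases before the RefSeq start of each gene. The reason was that 3 of the targets, Srxn1, Slc7a11 and Hmox1, had called relations with Nfe2l2 across the clonal lines of MEF-2. These calls were lost when certain single lines were left out, which also leaves the test fewer pairings, as described further on. No relation was called in MEF-1, and whether the sets differ in this was not tested. The core TGACNNNGC and the longer form TGANTCAGC, which contains the AP-1 letters TGANTCA and also matches the core when its N is C, were searched on both strands. Of 32851 such windows in RefSeq (GRCm38.p6), 10.2% held the core and 1.02% the longer form. Sequences were at hand for 8 of the members in 10 windows, and 4 members held a match. The 4 windows are shown for where the match lies, and capitals mark it.
Nfe2l2 (chr2:75704664-75704913, minus strand): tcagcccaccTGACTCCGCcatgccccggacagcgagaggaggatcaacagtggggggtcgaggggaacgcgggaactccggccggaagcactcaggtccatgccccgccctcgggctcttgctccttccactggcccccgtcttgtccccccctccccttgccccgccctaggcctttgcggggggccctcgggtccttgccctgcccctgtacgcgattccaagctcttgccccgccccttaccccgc
Srxn1 (chr2:152105274-152105523, plus strand): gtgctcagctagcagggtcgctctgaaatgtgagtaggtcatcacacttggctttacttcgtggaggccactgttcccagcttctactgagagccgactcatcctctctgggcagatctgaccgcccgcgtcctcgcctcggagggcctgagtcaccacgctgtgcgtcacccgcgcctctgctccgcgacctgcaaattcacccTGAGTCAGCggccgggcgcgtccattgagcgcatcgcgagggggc
Gclm (chr3:122245307-122245556, plus strand): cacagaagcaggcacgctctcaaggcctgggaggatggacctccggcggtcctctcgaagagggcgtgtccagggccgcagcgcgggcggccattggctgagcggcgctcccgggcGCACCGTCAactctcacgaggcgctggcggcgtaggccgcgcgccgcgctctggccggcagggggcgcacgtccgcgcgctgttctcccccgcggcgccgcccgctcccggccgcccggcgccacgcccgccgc
Txnrd1 (chr10:82858956-82859205, plus strand): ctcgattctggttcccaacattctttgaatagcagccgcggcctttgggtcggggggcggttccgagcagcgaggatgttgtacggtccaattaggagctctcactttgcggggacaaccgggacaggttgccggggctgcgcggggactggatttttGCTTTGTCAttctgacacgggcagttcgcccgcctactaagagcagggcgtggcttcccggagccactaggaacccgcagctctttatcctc
The match began 240 bases before the start in Nfe2l2, 45 in Srxn1, 134 in Gclm and 92 in Txnrd1, for 1 of 3 RefSeq starts of the latter. These starts can differ from the ends of the gene models given below, which are those of GENCODE. In Nfe2l2 and Srxn1 it reads on the strand of the gene, and in Gclm and Txnrd1 on the opposite one, as TGACGGTGC and TGACAAAGC. Srxn1 holds the longer form. The windows of Keap1, Slc7a11, Nqo1 and Akr1b8 do not hold these letters, which says nothing about elements farther away. Hmox1 and Gclc were not searched.

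The members lie on 6 chromosomes of mm10. Nfe2l2 (ENSMUSG00000015839) is at chr2:75675513-75704641 on the minus strand and Srxn1 (ENSMUSG00000032802) at chr2:152105516-152111376 on the plus strand. Gclm (ENSMUSG00000028124, chr3:122245557-122270732, plus) and Slc7a11 (ENSMUSG00000027737, chr3:49892526-50443614, minus) share chromosome 3. Hmox1 (ENSMUSG00000005413, chr8:75093621-75100589, plus) and Nqo1 (ENSMUSG00000003849, chr8:107388225-107403206, minus) share chromosome 8, and Keap1 (ENSMUSG00000003308, chr9:21229730-21239361, minus) and Gclc (ENSMUSG00000032350, chr9:77754535-77794485, plus) share chromosome 9. Txnrd1 (ENSMUSG00000020250) is at chr10:82833951-82897712 and Akr1b8 (ENSMUSG00000029762) at chr6:34354119-34368463, both on the plus strand. Sharing a chromosome matters in immortalised cells. The median rlog deviation of chromosome 2 was −0.25 in MEF-2 clonal line 3, against at most 0.15 in size for the other member chromosomes and lines.

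The lines carried fibroblast RNA. 7 of 8 fibroblast markers averaged above 5, and the mean of the list lay between 16.1 and 16.8 in all clonal lines. Thy1 was the exception, at 2.95 ± 0.23 (SD, n = 7) in MEF-1 and 5.54 ± 1.92 (SD, n = 7) in MEF-2 clonal lines. The 4 red cell markers were at or below 0 in every line, as were 1 of 5 blood and macrophage markers (Adgre1), 2 of 5 epithelial, 3 of 4 muscle and 1 of 4 neural and glial markers. MEF-1 and MEF-2 also differed in sex-linked RNA, with Xist between 8.75 and 8.83 in all 8 MEF-1 lines and between 15.3 and 15.8 in all 8 MEF-2 lines. Any difference between the sets is therefore one between embryos, sexes and immortalisation events at once, and these cannot be told apart.

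All 10 members were expressed. Compared per length (rlog minus the log2 of the exonic kilobases), the average level over 16 lines ran from 11.99 for Hmox1, the enzyme that opens haem, through 11.35 for Txnrd1, the cytosolic thioredoxin reductase, to 7.58 for Slc7a11, the cystine carrier. Between these lay Nfe2l2 (10.42), Keap1 (9.93), Akr1b8 (9.66), Srxn1 (9.24), Gclc (9.02), Gclm (8.82) and Nqo1 (8.74). The level per length of Hmox1 exceeded that of 94.9% of tested genes, and that of Slc7a11 exceeded 39.7%. Over the lines, neighbours in this order overlapped in range except Txnrd1 (lowest line 10.85) and Nfe2l2 (highest line 10.84), so the order within the middle of the list is not resolved. With the longest transcript as the length, Txnrd1 (12.32) stood above Hmox1 (12.14).

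**Figure D1:**
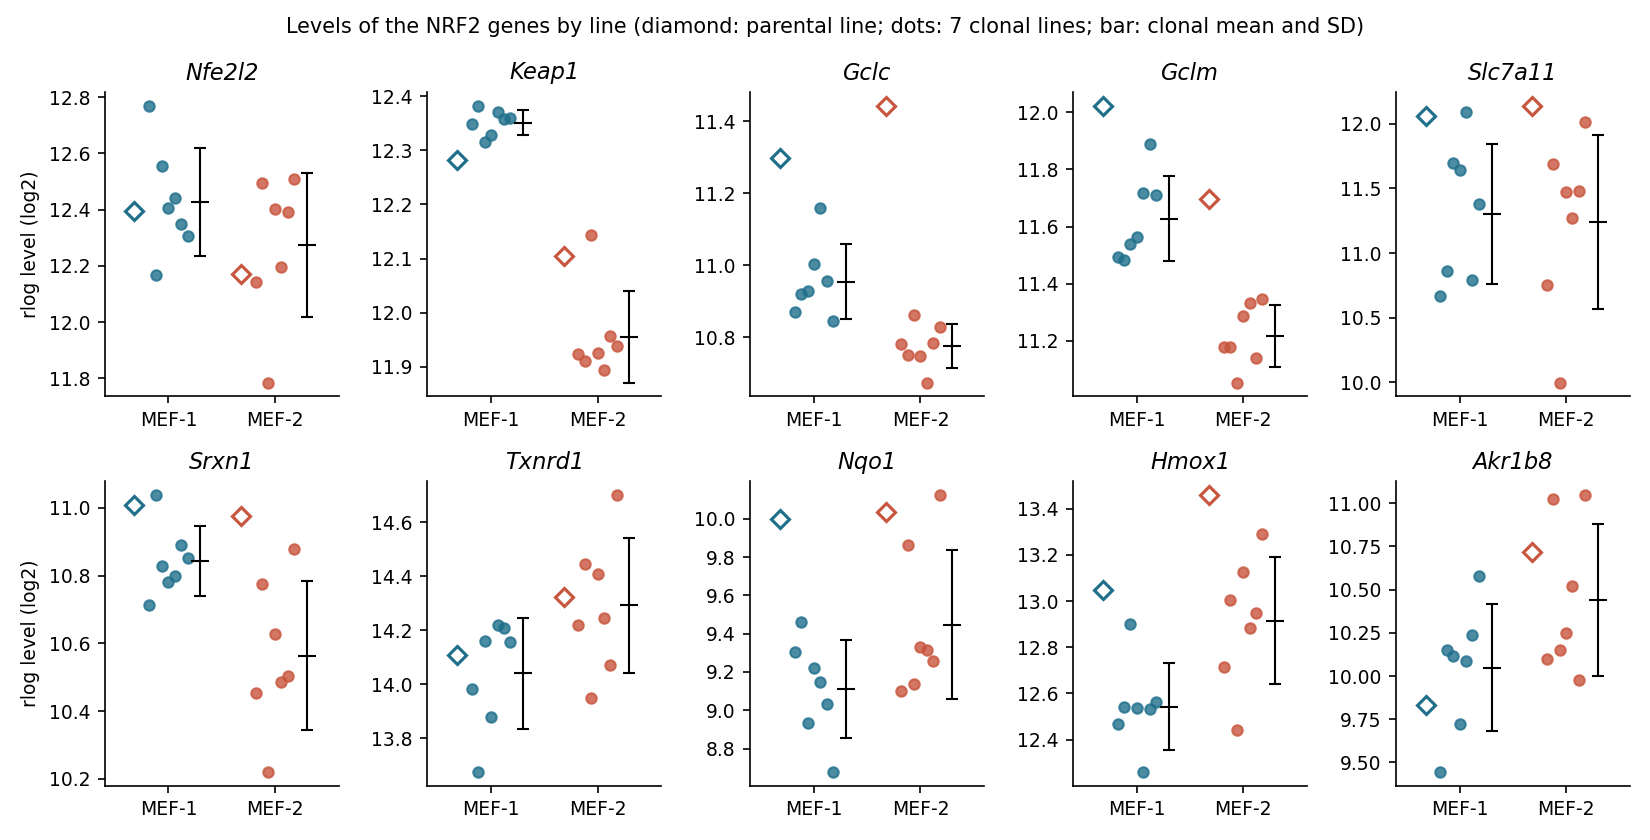
Levels of the 10 genes (rlog, log2 scale, a separate axis for each gene) in MEF-1 (blue) and MEF-2 (red). Diamonds are parental lines, dots are the 7 clonal lines in the order of their numbers, and bars give the clonal mean and SD. Keap1 and Gclm separate the 2 sets of clonal lines without overlap, and Slc7a11 covers the widest range.

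The clonal lines of MEF-2 were first compared with those of MEF-1, to see whether the NRF2 genes were set differently in lines of separate origin. Keap1, Gclm, Gclc and Srxn1 were lower in MEF-2 and Hmox1 was higher, so that the called targets lay in both directions. Of the 10 members 5 were called (limma, Benjamini-Hochberg adjusted over all 15285 genes, adjusted p under 0.05), 1 higher and 4 lower in MEF-2. Among all genes 56.1% were called, 27.5% higher and 28.6% lower, so a call in a member is no rarity here. 2 members did not overlap between the sets, against 25.9% of all genes. The median size of the difference was 0.31 for the members and 0.30 for all genes. Fewer cells with an RNA and less of it per cell cannot be told apart in bulk libraries.

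Keap1 separated the sets most cleanly. Its rlog value was 12.28 in the MEF-1 parental line and between 12.31 and 12.38 in its clonal lines (median 12.36). In MEF-2 it was 12.10 in the parental line and between 11.89 and 12.14 in the clonal lines (median 11.92). Every MEF-2 line, parental included, lay below every MEF-1 line, and the difference between the clonal sets was −0.40 ± 0.041 (SE, limma, adjusted p = 1.32e-06), or 1.32-fold. The spread of Keap1 in MEF-1 was very small (SD 0.023, n = 7), smaller than in all but 0.046% of the 4354 tested genes within 1 of its average, though it was 0.037 with chromosome medians taken out and 0.036 with lines centred. With the median of its chromosome taken from each line the difference was −0.35 (limma, adjusted p = 2.1e-06). An antisense gene overlaps Keap1, Gm16754, at an average of 0.96.

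Nfe2l2 itself was not called. Its value was 12.40 in the MEF-1 parental line and between 12.17 and 12.77 (median 12.41) in its clonal lines, against 12.17 and between 11.78 and 12.51 (median 12.39) in MEF-2. The sets overlapped, and the difference was −0.15 ± 0.113 (SE, limma, adjusted p = 0.259). The lower MEF-2 mean leaned on clonal line 3, the lowest of all 16 lines. In this line the median of chromosome 2, which carries Nfe2l2, was −0.25. The difference was −0.07 without this line, −0.10 without MEF-1 clonal line 1 and −0.09 with chromosome medians taken out, and none of these was called.

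The 3 genes of glutathione supply divided. Gclm encodes the modifier subunit of glutamate-cysteine ligase, the enzyme that sets the rate of glutathione synthesis. It was 12.02 in the MEF-1 parental line and between 11.48 and 11.89 (median 11.56) in the clonal lines, and 11.70 and between 11.05 and 11.34 (median 11.18) in MEF-2. No MEF-2 clonal line reached a MEF-1 clonal line, and the difference was −0.41 ± 0.070 (SE, limma, adjusted p = 0.000167), or 1.33-fold. Gm17494 on the opposite strand (average 6.64) and the pseudogene Gm6061 on the same strand (4.63) overlap Gclm, both far below its average of 11.48. Gclc, the catalytic subunit, was 11.30 in the MEF-1 parental line and between 10.85 and 11.16 (median 10.93) in the clonal lines. In MEF-2 it was 11.44 and between 10.67 and 10.86 (median 10.78). Only the highest MEF-2 clonal line passed the lowest MEF-1 clonal line, and the difference was −0.18 ± 0.054 (SE, limma, adjusted p = 0.0105). It was the one called member whose call was lost in any alternative (limma, adjusted p = 0.243 with the parental lines added).

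Slc7a11, which exchanges glutamate for the cystine that feeds this pathway, showed no such separation. It was 12.06 in the MEF-1 parental line and between 10.67 and 12.09 (median 11.38) in the clonal lines, and 12.14 and between 10.00 and 12.01 (median 11.47) in MEF-2. The sets overlapped, with line 3 of MEF-2 below all others, and the difference was −0.06 (limma, adjusted p = 0.867), with a sign that changed when single lines were left out. Slc3a2, the heavy chain that carries SLC7A11 to the membrane, was lower in MEF-2 (−0.50 ± 0.13, SE, limma, adjusted p = 0.00467). It lies on chromosome 19, whose median deviation averaged 0.18 in MEF-1 and −0.18 in MEF-2 clonal lines. With that median taken out the difference of Slc3a2 was −0.13 and not called (limma, adjusted p = 0.409).

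Of the genes of thiol repair, Srxn1 was called and Txnrd1 was not. Srxn1 encodes sulfiredoxin, which rescues overoxidised peroxiredoxins. It was 11.01 in the MEF-1 parental line and between 10.71 and 11.04 (median 10.83) in the clonal lines, and 10.98 and between 10.22 and 10.88 (median 10.50) in MEF-2. The sets overlapped through MEF-2 clonal lines 2 and 7, and the difference was −0.28 ± 0.090 (SE, limma, adjusted p = 0.0158). Txnrd1 was between 13.68 and 14.22 (median 14.16) in MEF-1 and between 13.95 and 14.70 (median 14.25) in MEF-2 clonal lines, with a difference of 0.25 that was not called (limma, adjusted p = 0.072). It was called without MEF-2 clonal line 3 (0.31, limma, adjusted p = 0.0267). Eid3, on the same strand, overlaps Txnrd1 at an average of 6.98 against 14.17.

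Hmox1 was the only member called as higher in MEF-2. It was 13.05 in the MEF-1 parental line and between 12.26 and 12.90 (median 12.54) in the clonal lines, and 13.46 and between 12.44 and 13.29 (median 12.95) in MEF-2. 4 MEF-2 clonal lines lay above every MEF-1 clonal line and 3 overlapped with them, and the difference was 0.37 ± 0.12 (SE, limma, adjusted p = 0.0139), or 1.29-fold. Hmox1 is also high in macrophages. Of 5 blood and macrophage markers Csf1r was higher in MEF-2 (5.55 ± 0.66 against 6.91 ± 0.84, SD, n = 7 each), Lyz2 was lower (6.00 ± 0.86 against 3.20 ± 0.31), Adgre1 was below 0 in every line, and the mean of the list ran from 3.47 to 4.17 in MEF-1 and from 3.30 to 4.09 in MEF-2 clonal lines. Nqo1, the quinone reductase, had a difference of 0.34 (limma, adjusted p = 0.1), with clonal lines between 8.68 and 9.46 (median 9.15) in MEF-1 and between 9.10 and 10.12 (median 9.32) in MEF-2. Akr1b8, an aldo-keto reductase, had a difference of 0.39 (limma, adjusted p = 0.108), with clonal lines between 9.45 and 10.58 (median 10.12) in MEF-1 and between 9.98 and 11.05 (median 10.25) in MEF-2. Its near copy Akr1b10 on the same chromosome averaged 9.44, and how reads shared by both were divided between them is unknown. Akr1b10 was called as higher in MEF-2 (0.39, limma, adjusted p = 0.0142).

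**Figure D2:**
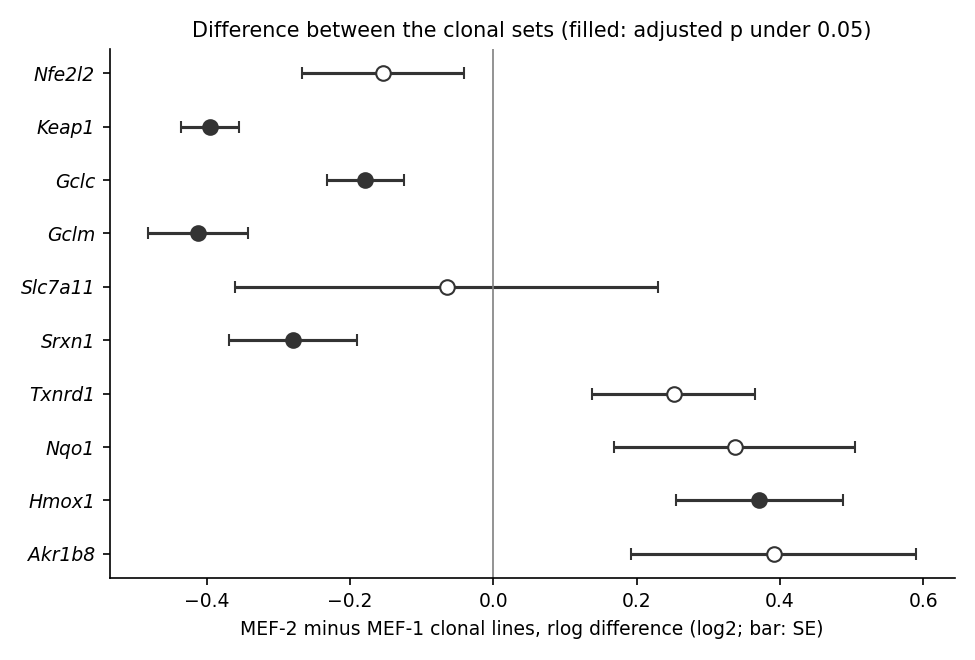
Difference of each gene between the clonal sets (MEF-2 minus MEF-1, rlog, log2 scale), with the SE of the limma fit as bars and filled points for adjusted p under 0.05. Keap1, Gclc, Gclm and Srxn1 lie to the left of 0 and Hmox1 to the right, all between −0.41 and 0.37.

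Some other genes of the pathway differed by more than any member. A list of 72 other genes in 9 roles was examined, of which 67 were tested and 42 were called, 16 higher and 26 lower in MEF-2. The share called can be read against the 56.1% of all genes, and the median difference of the list was −0.02. Quinone, carbonyl and aldehyde metabolism had 8 of 9 tested genes called, 6 of them lower. Cbr3, a carbonyl reductase, was 8.74 ± 0.20 (SD, n = 7) in MEF-1 and 4.94 ± 0.42 in MEF-2 clonal lines, 14.0-fold apart (−3.81 ± 0.18, SE, limma, adjusted p = 3.66e-10). The MEF-2 parental line, at 7.42, stood far above the clonal lines grown from it. Aldh3a1 (−2.07), Ugt1a6a (−1.97), a glucuronosyltransferase, and Aox1 were also lower, while Ephx1, the microsomal epoxide hydrolase (0.64), and Nqo2 (0.54) were higher. Ugt1a6a was low and uneven, at 3.70 ± 1.47 (SD, n = 7) in MEF-1 and 1.73 ± 0.11 in MEF-2 clonal lines.

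The export pumps had 4 of 5 genes lower in MEF-2 and none higher. Among those lower, Abcc2 averaged only 0.19, close to the bound of the filter on low values. Abcc3, which exports glucuronides, was 9.46 ± 0.81 (SD, n = 7) in MEF-1 and 5.63 ± 0.31 in MEF-2 clonal lines (−3.83 ± 0.31, SE, limma, adjusted p = 9.55e-08), and here the parental lines, at 9.25 and 5.96, lay with their clonal lines. Abcc4 (−1.08) and Abcc5 (−0.53) were lower by less, and Abcc1 had a difference of −0.01 that was not called. Of 8 glutathione transferases tested 4 were lower, among them Mgst2 (−1.74), Mgst1 (−1.73) and Gstm1 (−1.30), and 1 was higher, Gstm2 (1.54), a close relative of Gstm1. Abcc2 and Gstp1, among those lower, are on chromosome 19, and with its median taken out their differences were 0.03 and −0.11, neither called (limma, adjusted p = 0.813 and 0.0554).

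Of 6 genes of NADPH supply 3 were higher and none was called as lower, with Me1 at −0.08 and Tkt at −0.02. Taldo1, the transaldolase of the pentose phosphate pathway, was higher by 1.15 ± 0.079 (SE, limma, adjusted p = 2.1e-08), Idh1 by 0.62 and Pgd by 0.28. Among 6 haem and iron genes 3 were higher, Slc40a1, the iron exporter ferroportin (1.53), Blvra and Ftl1 (0.44), and 1 was lower, Fth1, the heavy ferritin chain (−1.31). Fth1 is also on chromosome 19, and with the chromosome median taken out its difference was −0.94 (limma, adjusted p = 4e-06). Fech, the last enzyme of haem synthesis, is on chromosome 18 and was not called (−0.21), but with the chromosome median taken out it was (−0.51, limma, adjusted p = 1e-06). In the thioredoxin system, Prdx6, a peroxiredoxin, was higher (0.69) and Txnip, an inhibitor of thioredoxin, was lower (−1.16), of 5 tested.

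The remaining groups were mixed. Glutathione synthesis and recycling had 1 gene higher and 2 lower of 6, with Gsr and Gss not called (Gss was with the chromosome median taken out, at 0.26, limma, adjusted p = 0.0196). Aldo-keto reductases had 3 higher and 3 lower of 7, with Akr1a1, the highest of them, at a difference of 0.18 (limma, adjusted p = 0.0147). Of 15 partners and turnover factors of NRF2, 2 were higher and 5 lower. The latter included Osgin1, an oxidative stress response gene (−1.86), and Nfe2l1, the relative of Nfe2l2 with the highest level in the group (−0.22). With chromosome medians taken out, Btrc on chromosome 19 and Cul3 lost their calls (limma, adjusted p = 0.162 and 0.23) and Bach1 gained one (limma, adjusted p = 0.0405).

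**Figure D3:**
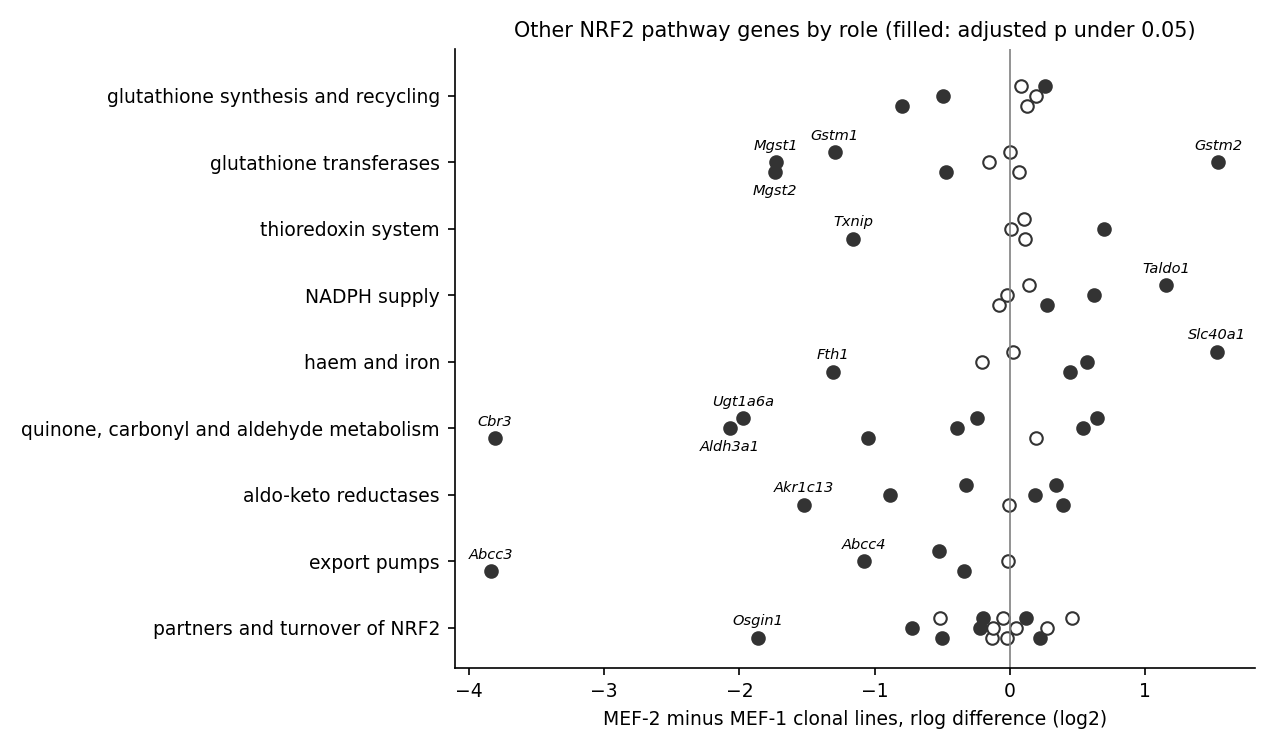
Differences of 67 further pathway genes between the clonal sets (MEF-2 minus MEF-1, rlog, log2 scale), 1 point per gene and 1 row per role, filled for adjusted p under 0.05. Abcc3 (−3.83) and Cbr3 (−3.81) stand apart from the rest, and none of the 5 export pumps lies to the right of 0.

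Next, the variation among clonal lines of the same origin was examined, as these began as single cells of one population. Slc7a11 varied most. Its SD was 0.54 in MEF-1 and 0.67 in MEF-2 (n = 7 each), larger than in 96.0% and 98.3% of the 4581 genes within 1 of its average, and its extremes lay 2.67-fold and 4.05-fold apart. In MEF-1, lines 1, 2 and 6 were at 10.67 to 10.86 and lines 3, 4 and 5 at 11.65 to 12.09, with line 7 between. In MEF-2 the values spread from 10.00 in line 3 to 12.01 in line 7.

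Akr1b8 (SD 0.37 and 0.44) and Nqo1 (0.26 and 0.39) followed. Gclc was among the steadiest, with SDs of 0.10 and 0.061, the second smaller than in all but 8.91% of genes of like average. The median SD of the members was 0.19 in MEF-1 and 0.25 in MEF-2, against 0.20 and 0.16 for all tested genes. As each clonal line has 1 library, spread between lines and spread between libraries cannot be told apart. Slc7a11 is also a target of ATF4, the factor of the amino acid response. 8 further ATF4 targets, none of them called between the sets (Asns was with chromosome medians taken out, at 0.46, limma, adjusted p = 0.0404), had SDs between 0.32 and 0.61 in MEF-1 and between 0.32 and 0.78 in MEF-2, with Trib3 at 0.57 and 0.78 and Chac1 at 0.54 and 0.72.

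In MEF-2 the targets were often extreme in the same lines. Clonal line 7 was the highest of the 7 lines in 7 of the 8 targets, all except Gclc, and line 3 was the lowest in 5. In MEF-1 no line was the highest in more than 3 targets or the lowest in more than 3. Such counts were not made over all tested genes, so they cannot be read as particular to the targets. The mean of the 8 targets, each centred on its set, ran from −0.38 in line 3 to 0.42 in line 7 of MEF-2, and from −0.19 in line 1 to 0.13 in line 5 of MEF-1. Nfe2l2 had the same extremes as the MEF-2 targets, with 11.78 in line 3 and 12.51 in line 7. Keap1 in line 3 was, at 12.14, the highest of its set.

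Relations of Nfe2l2 and Keap1 with each target, and of Gclc with Gclm, were computed in each set over 7 clonal lines, 34 in all, with exact permutation tests (two-sided, over all pairings of the 7 lines) and Benjamini-Hochberg adjustment over the 34. 3 were called, all of them with Nfe2l2 in MEF-2. For Slc7a11 Pearson's r was 0.97 (exact p = 0.000397, adjusted 0.00675) and Spearman's rho 0.96 (exact p = 0.00278, adjusted 0.0315). For Srxn1 r was 0.92 (exact p = 0.000198, adjusted 0.00675) and rho 1.0 (exact p = 0.000397, adjusted 0.0135). For Hmox1 r was 0.93 (exact p = 0.00139, adjusted 0.0157) and rho 0.96 (exact p = 0.00278, adjusted 0.0315).

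The calls of these relations changed with the lines included. Without lines 1 and 3, the 2 farthest from the median of Nfe2l2, r was 0.86 for Slc7a11, 0.83 for Srxn1 and 0.70 for Hmox1. Without line 3 alone r was 0.92, 0.86 and 0.84, and none of the 34 relations was called (exact permutation test, adjusted p = 0.0944, 0.319 and 0.319). With a line left out the exact test has fewer pairings, and its smallest possible p is larger. A lost call alone therefore does not show a weaker relation. Calls remained possible, as without line 4 (exact permutation test, adjusted p = 0.0157 for each of the 3). The call of Hmox1 was also lost without line 1, 5 or 7 (exact permutation test, adjusted p = 0.0787, 0.0787 and 0.059), with r between 0.93 and 0.95, and that of Srxn1 without line 2 (r = 0.90, exact permutation test, adjusted p = 0.173). Nfe2l2 and Srxn1 share chromosome 2, whose median was low in line 3. With chromosome medians taken out r was 0.94 for Slc7a11 and 0.91 for Hmox1 (exact permutation test, adjusted p = 0.0135 and 0.0304), and 0.81 for Srxn1, which was then not called (exact permutation test, adjusted p = 0.18). The MEF-2 parental line did not follow the clonal lines. It had Nfe2l2 at 12.17 but Slc7a11 at 12.14, above all its clonal lines, and with it added r was 0.79 for Slc7a11, 0.65 for Srxn1 and 0.65 for Hmox1 and none of the relations was called.

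Many genes followed Nfe2l2 in MEF-2. Over these clonal lines 479 of the other 15284 tested genes (3.13%) had r of 0.9 or more with Nfe2l2, and 3 of the 9 other members did. Over the MEF-1 clonal lines 0.399% did, and no member. There Nfe2l2 and Srxn1 had r = −0.85 (exact p = 0.0212, adjusted 0.18) and rho −0.82 (exact p = 0.0341, adjusted 0.166), and r was −0.02 for Slc7a11 (exact p = 0.963) and 0.07 for Hmox1 (exact p = 0.907). Whether the relations differ between the sets was not tested.

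Keap1 had no called relation with a target in either set. In MEF-2 the smallest p was with Gclm (r = −0.71, exact p = 0.031, adjusted 0.21), and the largest r were with Slc7a11 (r = −0.76, exact p = 0.0954, adjusted 0.295) and Gclc (r = 0.75, exact p = 0.056, adjusted 0.272). Without lines 3 and 5 they were −0.07, 0.17 and 0.52. Gclc and Gclm, the subunits of one enzyme, had r = 0.27 in MEF-1 and −0.52 in MEF-2, neither called (exact p = 0.564 and 0.225).

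**Figure D4:**
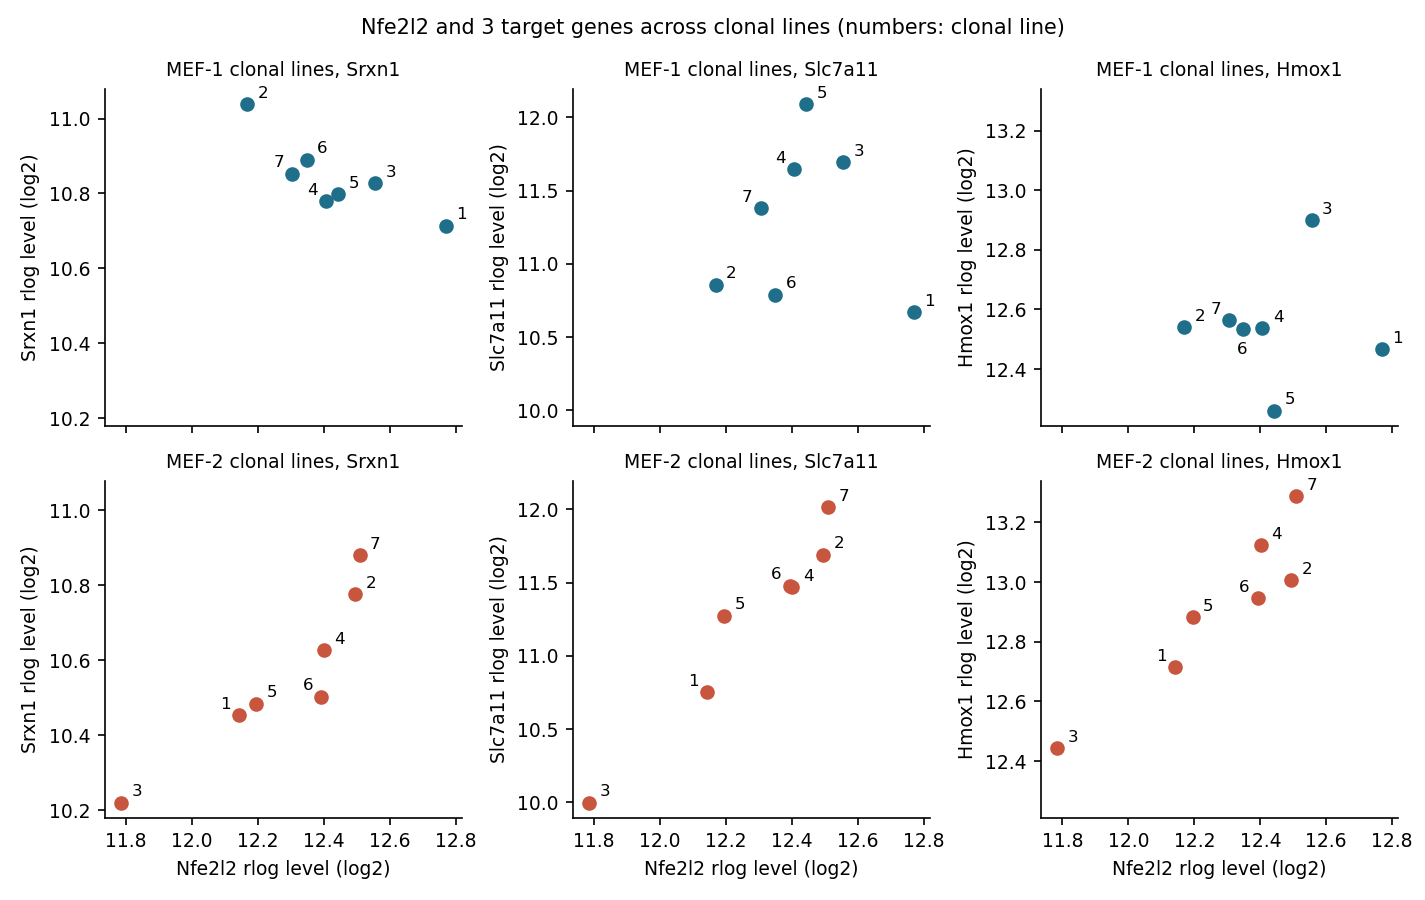
Srxn1, Slc7a11 and Hmox1 against Nfe2l2 (rlog, log2 scale on both axes) over the 7 clonal lines of MEF-1 (upper row) and MEF-2 (lower row), with points numbered by clonal line. The MEF-2 lines climb from line 3 to line 7 (r between 0.92 and 0.97), while MEF-1 lines show no such course (r between −0.85 and 0.07).

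The genes outside the lists whose pattern was most like the mean of the 8 targets, over 14 set-centred clonal lines, were Ly75 (r = 0.97), Psmd14 (0.97), Esd (0.96), Vti1b (0.95) and Coro1c (0.95). Ly75 and Psmd14 lie on chromosome 2, whose median was −0.25 in MEF-2 clonal line 3. Psmd14 encodes a proteasome subunit and Coro1c an actin-binding protein. They are given as a description only, since 501 of 15177 genes had r of 0.8 or more and all share the same libraries.

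Finally, each parental line was set against the clonal lines grown from it. Gclc, Gclm and Hmox1 were higher in both parental lines than in every clonal line, that is in 3 of 10 members against 4.85% of all genes. In MEF-1, 4 members stood above all 7 clonal lines (20.2% of all genes), the 3 named and Nqo1, 5 lay inside the clonal range, and Keap1 lay below it, at 12.28 against a lowest clonal line of 12.31. Its gap to the clonal mean was −0.07, and −0.0045 with the median of its chromosome taken out. In MEF-2, 5 stood above (15.8% of all genes), the 3 named, Srxn1 and Slc7a11, and 5 lay inside.

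For Gclc the parental lines were at 11.30 and 11.44, and the highest clonal lines were at 11.16 in MEF-1 and 10.86 in MEF-2. For Gclm the parental lines stood 0.39 and 0.48 above the mean of their clonal lines, and for Hmox1 0.50 and 0.54. Nqo1 stood 0.89 above in MEF-1, at 10.00 against a highest clonal line of 9.46, and 0.59 above in MEF-2, where 1 clonal line, line 7, exceeded the parental 10.04. For Slc7a11 the gaps were 0.76 and 0.90, with 1 clonal line of MEF-1 at a like level.

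A fit of the 2 parental against the 14 clonal lines, with the set as covariate, was added after these values had been seen. It called 31 of 15285 genes (0.203%, 20 higher and 11 lower in parental lines). With single clonal lines left out this count ran from 15 (without MEF-2 clonal line 1) to 137 (without MEF-2 clonal line 7). In the fit of all lines Gclc was the only member called (0.50 ± 0.084, SE, limma, adjusted p = 0.0216, 13th of all genes by p). Gclm (0.44, limma, adjusted p = 0.0736), Hmox1 (0.52, 0.14), Nqo1 (0.74, 0.148), Srxn1 (0.29, 0.248) and Slc7a11 (0.83, 0.293) were not called. The differences of Txnrd1 (0.05), Akr1b8 (0.03), Keap1 (0.04) and Nfe2l2 (−0.07) were the smallest. The median over the 8 targets was 0.47, against −0.01 over all genes. 5 members had an unadjusted p under 0.05, as did 18.1% of all genes. With 1 parental line at a time the gap of Gclc was 0.67 in MEF-2 and 0.34 in MEF-1. A single parental library gives no spread among parental lines, so no p-value is given for these gaps. In the fit of both, without MEF-1 clonal line 6 or MEF-2 clonal line 7 Gclm was called too (limma, adjusted p = 0.046 and 0.0434). Interactions between line type and set rest on 1 parental library in each set, so they cannot show whether the gaps of the sets agree.

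Values of other lists are given beside these. Thy1 was 6.12 and 10.22 in the parental lines, above the clonal means given earlier, though not called (limma, adjusted p = 0.0785). Of 8 fibroblast markers 3 had a positive fitted difference (median −0.10, with Pdgfra at −0.80). Atf4 and its 8 targets all had positive differences (9 of 9, median 0.35), as did 3 of 4 endothelial markers (median 0.60, with Tek at 0.88), and none of these was called. The part of any of these in the results for the members was not tested. Of the 67 other pathway genes tested 39 had a positive difference and none was called, with a median of 0.06. All 6 NADPH genes were among the 39, and 1 of 8 glutathione transferases. A parental line is a mixture of cells whereas a clonal line passed through 1 cell and many plates, and the part of either in these differences was not tested.

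**Figure D5:**
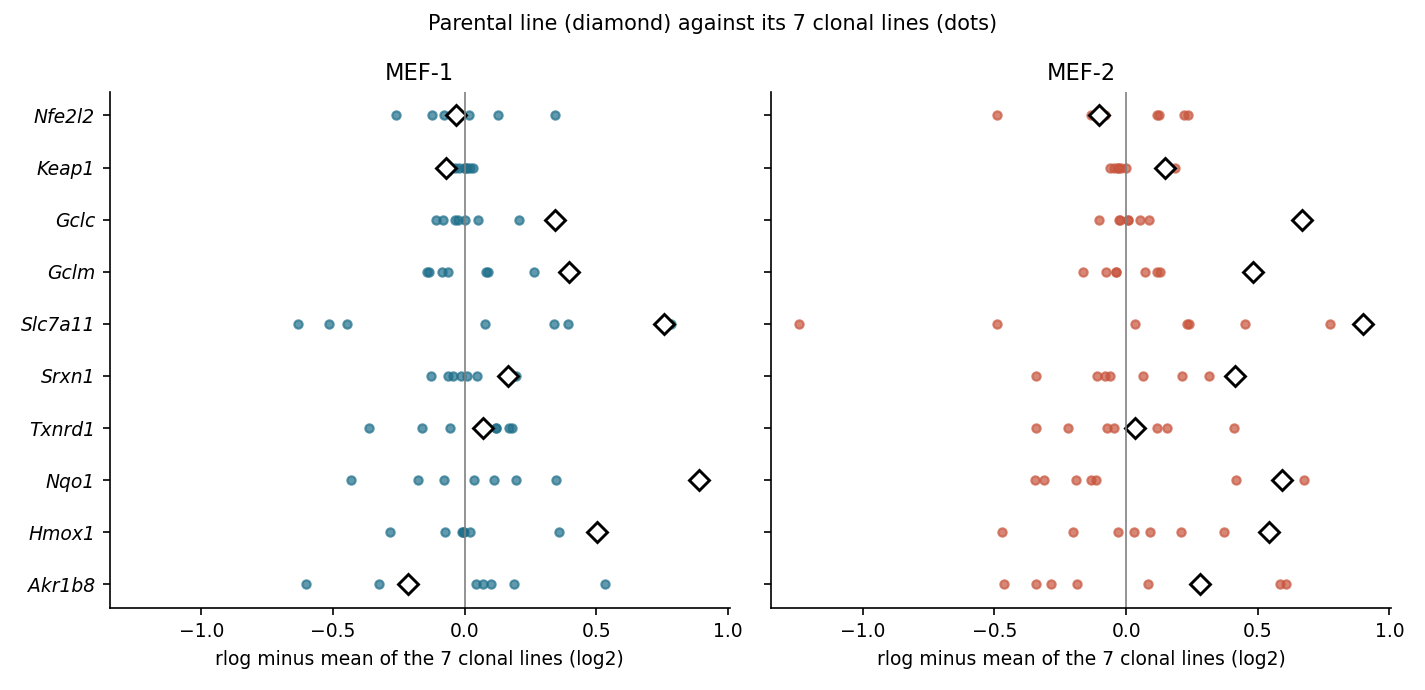
Parental line (diamond) and its 7 clonal lines (dots) for each gene, as rlog (log2 scale) minus the mean of the clonal lines, for MEF-1 (left) and MEF-2 (right). The diamonds of Gclc, Gclm and Hmox1 lie to the right of every dot in both panels, and those of Nfe2l2, Txnrd1 and Akr1b8 lie within the dots.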

How the data were processed

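Total RNA from 16 lines was rRNA-depleted and sequenced, with 1 library per line. Per the submitters' processing notes and the methods, the authors trimmed reads with Trim Galore 0.6.0, quantified transcripts with Salmon 1.5.2 on mm10 (Ensembl annotation) and deposited log2 values made by the rlog transformation of DESeq2 1.24.0, with no counts, so that depth per line is unknown and no counting interval can be given. How transcripts were summed to genes is not given in the sources used here. Fragmentation times depended on RNA integrity and are not known per line.

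Ensembl identifiers were looked up in GENCODE M21, also on mm10 (54200 of 54453 found). Ddit3, with more than one identifier, was left out. The 15285 protein-coding genes with an average above 0 were fitted with limma 3.58.1 (trended variance, R 4.3.3) on the rlog values, 7 MEF-2 against 7 MEF-1 clonal lines, and p-values were adjusted over all of them. Replicates are clonal lines of 1 embryo each, so p-values measure the spread between clonal lines and not between embryos. Tests planned for counts were not possible. The members and gene lists were chosen with earlier results of these data known. Named pathway genes are the 5 largest called differences in each direction and the highest gene of a role without one, and others were named after their values were seen. Alternatives changed the filter, the variance model, the scaling, the chromosome medians, the pairing and the lines. Python 3.11.15 was used otherwise. Bisulfite sequencing was not analysed here.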

Additional observations from a re-analysis of the deposited data

Results flagged for a closer look

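Keap1 in MEF-2 clonal line 3 stood apart from the other 6 lines of its set, at an rlog value of 12.14 against 11.96 in the next line, a gap of 0.748 of the range. It was the one value so marked among 20 sets of 7 clonal values (10 genes in MEF-1 and MEF-2), where chance marks about 1. The same line had the lowest Nfe2l2 (11.78), Hmox1 (12.44), Gclm (11.05), Srxn1 (10.22), Txnrd1 (13.95) and Slc7a11 (10.00) of its set. The median of chromosome 9, which carries Keap1, was 0.01 in this line, and with that median taken out Keap1 was at 12.13. The median of chromosome 2, which carries Nfe2l2 and Srxn1, was −0.25. Whether these deviations share an origin was not tested.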

How the results depend on the processing

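Keap1, Gclm, Hmox1 and Srxn1 were called between the clonal sets in all 24 alternatives, and Gclc in all except the one with the parental lines added. The number of members called stayed at 5 or 6, that of the pathway list at 39 to 44 and that of all genes at 7760 to 10288. The limma fit with the clone number as a replicate block called 8226 genes and 6 members, Akr1b8 in addition (adjusted p = 0.0306). Same-numbered clones are different cells, and the correlation of their deviations ran from −0.13 to 0.20 over the 7 pairs, so the number is not a pairing. Txnrd1 and Akr1b8 were also called with the parental lines added (adjusted p = 0.0456 and 0.0415). The difference of Slc7a11 changed sign without MEF-1 clonal line 3 (0.0003) or 5 (0.066) and without MEF-2 clonal line 1 (0.016) or 3 (0.14), between −0.19 and 0.14 in all. The relations called went from 3 to 0 with the parental lines added, and over single lines left out from 0 (without MEF-2 clonal line 3) to 4. With 6 lines the exact test allows fewer pairings and its smallest possible p is larger, so a lost call alone does not show a weaker relation. Between parental and clonal lines, 48 genes were called after quantile normalisation, 21 with MEF-1 lines alone (0 members) and 89 with MEF-2 lines alone (Gclc), each with a single parental library, and 15 (without MEF-2 clonal line 1) to 137 (without MEF-2 clonal line 7) with single lines left out, with 1 or 2 members. There Keap1 (−0.07) and Akr1b8 (−0.22) changed sign with MEF-1 lines alone, and Akr1b8 without MEF-1 clonal line 1 (−0.015) or MEF-2 clonal line 6 (−0.008), between −0.015 and 0.080 over single lines left out. The cause of these changes was not tested. The DESeq2 alternative was not run, as it needs counts. Unknown depth limits what can be said of small differences.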
